A study of Mus musculus with 2 samples.

Results

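The chemokine gene Cxcl12 and the genes of its 2 receptors, Cxcr4 and Ackr3, were followed through the cell groups of the newborn mouse dentate gyrus, the neurogenic field of the hippocampus. The 3 genes were taken by symbol from the 31053 genes of the count tables. Droplet-based RNA sequencing of single cells had been done on 1 KO library and 1 control library. The KO library was made from postnatal day 2 animals of the genotype hGFAP-Cre;Kdm6bF/F, in which a Cre transgene under the human GFAP promoter deletes a floxed Kdm6b, which encodes a histone H3K27 demethylase, in radial glia and the cells that descend from them. The control library was made from littermates of the same age, whose genotype is labelled WT and whose Cre and flox alleles are not stated. Each library pooled 2 animals. Cells of mesodermal origin, such as endothelial cells, are not known as targets of this Cre, and the transgene does not mark which cells of the KO library lost the gene. Cell groups were rebuilt from marker genes and carry the ending "-like".

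CXCL12 is a secreted chemokine that binds heparan sulphate on cell surfaces and in the extracellular matrix and draws cells that carry the receptor CXCR4, which signals through inhibitory G proteins. ACKR3, also called CXCR7, binds the same ligand, recruits beta-arrestin and removes the ligand from the extracellular space. In the developing dentate gyrus, meninges and Cajal-Retzius cells are known sources of CXCL12, and CXCR4 is known for its part in the migration of granule cell precursors and in the placement of Cajal-Retzius cells and interneurons.

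After filtering, 1936 KO cells with 25519531 unique molecular identifiers (UMIs, counted transcript molecules) and 2956 control cells with 31450778 UMIs remained. The median cell had 9243 UMIs in the KO library and 7340 UMIs in the control library. Levels are given in CPM, the share of a group's UMIs that belong to the gene times 1000000, with exact 95% Poisson intervals. Because each genotype has a single library, genotypes could not be tested against each other, no difference has a replicate check, and every interval covers counting error only. A gene is counted here as higher or lower when its CPM differed at least 1.5-fold and both libraries together held at least 20 of its UMIs. Of the barcodes kept, 6 occurred in both libraries. Kdm6b itself stood at 57.3 CPM in the KO library and 57.9 CPM in the control library, but its 3′ tags are not known to lie in the deleted part and so do not check the labels. The libraries also differed in sex. No cell of the KO library had Y-linked UMIs without Xist, which allows a share of up to 0.155%, whereas 33.4% of the control cells did. Genotype and sex are thus partly confounded, and values from Xist-positive, Y-negative cells (Xist UMIs and no Y-linked ones; 1822 KO cells and 1299 control cells) are given beside the main results.

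Cxcl12 (ENSMUSG00000061353; mm10, chromosome 6, 117168535 to 117181367, plus strand), the ligand, was among the more abundant transcripts. It had more UMIs than 87.8% of the detected genes in the KO library and than 94.1% in the control library. Over all cells it had 1848 UMIs in the KO library, 72.4 CPM (69.2 to 75.8), against 4510 UMIs in the control library, 143 CPM (139 to 148). The log2 ratio was -0.99, with a 95% interval of the ratio of 0.478 to 0.533. Over all cells, 5.34% of the 16093 genes with enough UMIs were lower by this rule and 8.25% were higher, and Cxcl12 was among the lower ones. In Xist-positive, Y-negative cells the log2 ratio was -0.92, from 1842 UMIs in the KO library and 1865 UMIs in the control library.

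Most of the ligand's UMIs came from 3 groups of cells. Cajal-Retzius-like cells, early-born neurons of the marginal zone that secrete reelin, held 44.4% of the Cxcl12 UMIs of the KO library and 70.0% of those of the control library. Endothelial-like cells held 26.2% in the KO library and 12.8% in the control library. Leptomeningeal fibroblast-like cells, the connective tissue cells of the meninges, held 20.1% in the KO library and 12.4% in the control library. These groups are small, at 32 KO cells and 130 control cells for the Cajal-Retzius-like group, 196 KO cells and 192 control cells for the endothelial-like group, and 16 KO cells and 33 control cells for the fibroblast-like group.

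**Figure D1:**
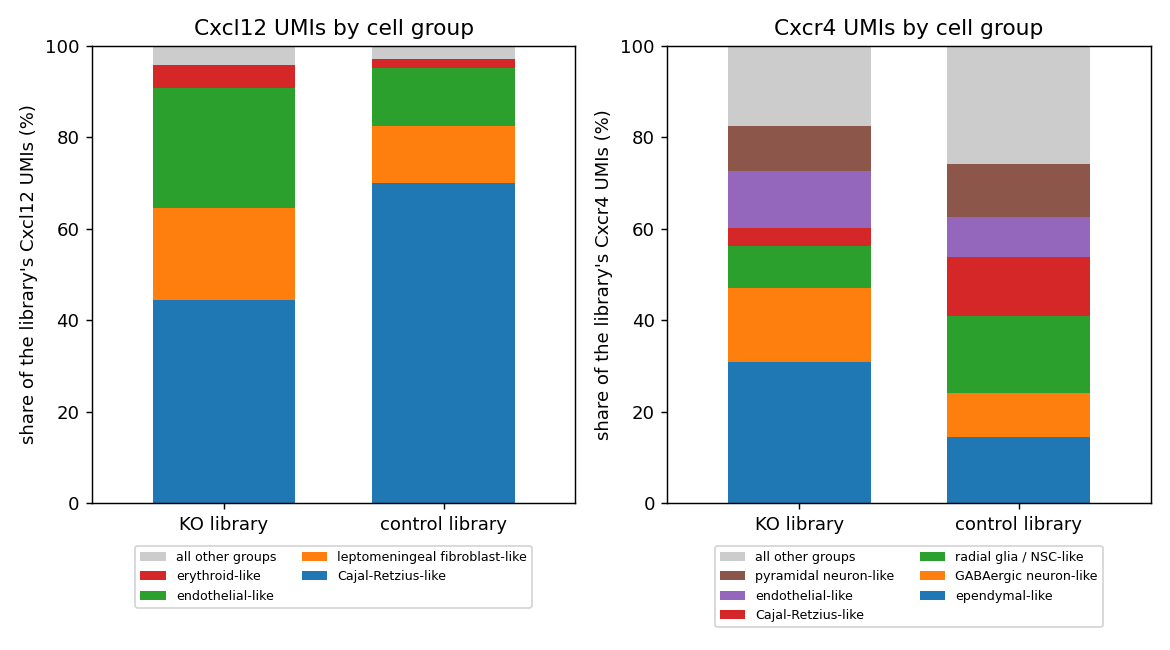
Share (in percent) of the Cxcl12 UMIs (left panel) and the Cxcr4 UMIs (right panel) of each library that fell into each cell group, with the KO library as the left bar and the control library as the right bar of each panel. Cajal-Retzius-like cells hold 44.4% of the Cxcl12 UMIs in the KO library and 70.0% in the control library, while Cxcr4 UMIs are spread over many groups in both.

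Per UMI of the group, the fibroblast-like and Cajal-Retzius-like cells stood at similar heights and far above all other groups. Fibroblast-like cells had 371 Cxcl12 UMIs in the KO library, 2983 CPM (2687 to 3303), against 559 UMIs in the control library, 2768 CPM (2543 to 3007). Cajal-Retzius-like cells had 821 UMIs in the KO library, 2327 CPM (2171 to 2492), against 3157 UMIs in the control library, 2711 CPM (2617 to 2807). The next group in the order, the endothelial-like cells, had 128 CPM in the KO library and 135 CPM in the control library. The step from Cajal-Retzius-like down to endothelial-like cells was 18.2-fold in the KO library (interval 16.3 to 20.4) and 20.1-fold in the control library (18.4 to 22.0). The order of the upper pair lay beyond counting error in the KO library, where the ratio of fibroblast-like to Cajal-Retzius-like cells was 1.28 (1.13 to 1.45), but not in the control library, where it was 1.021 (0.932 to 1.12). Below the endothelial-like cells, neighbours in the order differed beyond counting error only at the step from the erythroid-like to the mural-like cells, in both libraries.

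**Figure D2:**
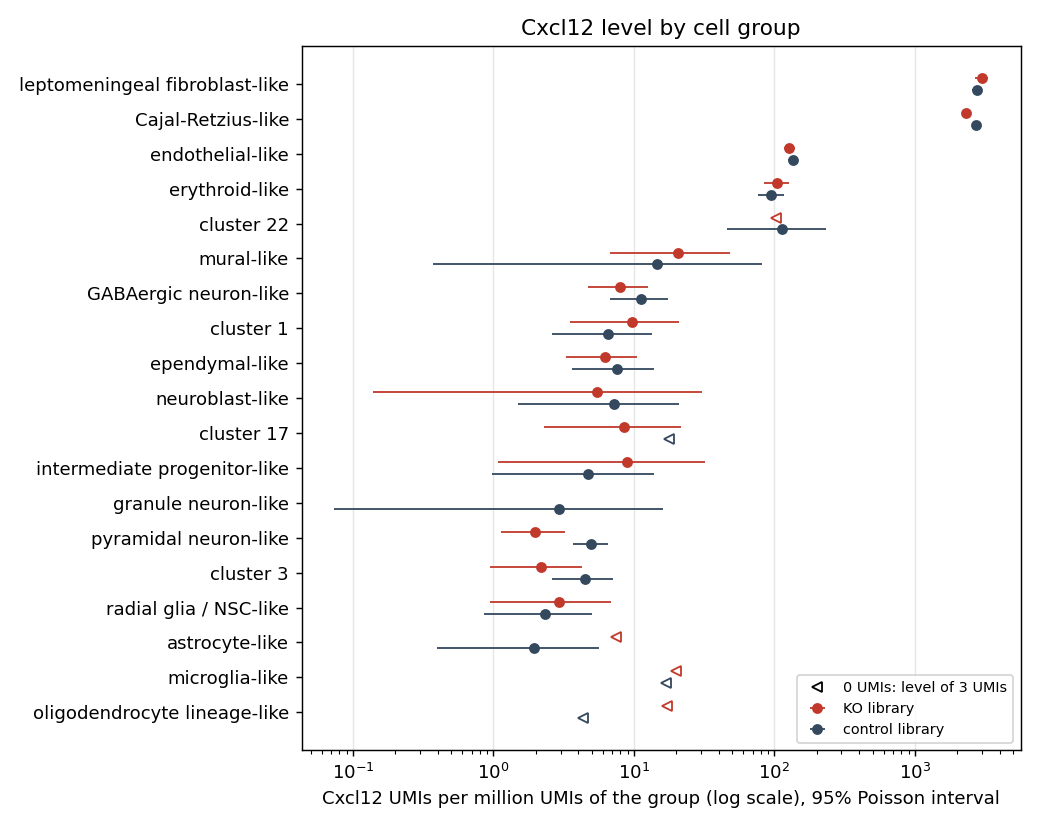
Cxcl12 level in CPM (log axis) by cell group, with the KO library (red) above the control library (dark blue) in each row; points are UMI sums over all cells of the group and bars are exact 95% Poisson intervals, open triangles mark the level that 3 UMIs would give where a group had 0, and groups with fewer than 10 cells in a library have no point for it. Fibroblast-like and Cajal-Retzius-like cells lie above 2000 CPM in both libraries and every other group lies below 140 CPM.

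The main source, the Cajal-Retzius-like cells, was a smaller share of the KO library. Its Cxcl12 level was also lower there, within 1.5-fold. What set the lower total was not tested. Cajal-Retzius-like cells were 1.65% of the KO cells and 4.40% of the control cells. Within this group the log2 ratio of Cxcl12 was -0.22 (ratio 0.794 to 0.927), and the median cell had 18.2 Cxcl12 UMIs per 10000 UMIs in the KO library (3.45 to 49.3 over 32 cells) and 25.7 in the control library (0 to 58.8 over 130 cells). The single cells of the libraries overlapped over nearly the whole range. When the KO level of each group was weighted by the share of UMIs that the group held in the control library, which was added after seeing the data, the total came to 129 CPM, against the observed 143 CPM of the control library, a log2 ratio of -0.16. With the Cajal-Retzius-like cells left out, likewise added after seeing the data, the log2 ratio over the other cells was -0.13, from 1027 UMIs in the KO library and 1353 UMIs in the control library. The shares of cells can also be set by dissection and dissociation, whose part was not tested.

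Within Cajal-Retzius-like cells Cxcl12 also differed between the Xist-positive and the Y-positive cells of the control library. That library pooled 2 animals, so sex could not be told apart from the single animal. Xist-positive, Y-negative control Cajal-Retzius-like cells had 3051 CPM of Cxcl12 and Y-positive, Xist-negative ones had 2441 CPM, a log2 ratio of 0.32 (ratio 1.16 to 1.35). Among Xist-positive, Y-negative cells, the KO cells had 2327 CPM and the control cells 3051 CPM, a log2 ratio of -0.39 (0.697 to 0.835), further from 0 than over both sexes and within 1.5-fold. The identity of the group was clear in both libraries, as all 8 Cajal-Retzius markers, Reln, Trp73 and Lhx5 among them, were detected in at least 10% of its cells in each. Of 9 fibroblast markers, 8 had no UMI in the KO cells of the group and 7 had none in the control cells. Cxcl12 was detected in 32 of 32 KO cells and 129 of 130 control cells of the group, and in cells thinned to 2000 UMIs in 96.7% of 30 KO cells and 96.2% of 130 control cells. In oligodendrocyte lineage-like cells, which are no known source, it was detected in 0 of 32 KO cells (median 4259 UMIs) and 0 of 135 control cells (median 4649 UMIs). A limit of 3 counts allows a share of up to 9.38% in the KO library and 2.22% in the control library (exact 95% limits 10.9% in the KO library and 2.70% in the control library). These cells were shallower than the Cajal-Retzius-like cells, and after thinning to the same 2000 UMIs it was detected in 0 of 25 KO cells and 0 of 130 control cells (exact 95% limits 13.7% in the KO library and 2.80% in the control library). The Cajal-Retzius-like cells had medians of 11722 UMIs in the KO library and 9053 UMIs in the control library.

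**Figure D3:**
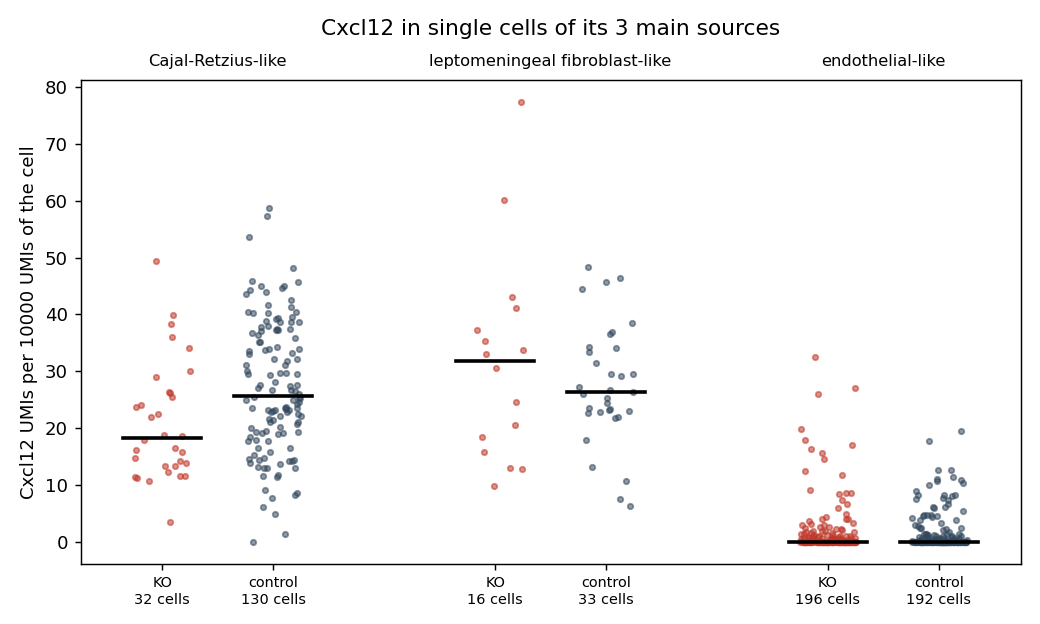
Cxcl12 UMIs per 10000 UMIs in every cell of its 3 main sources, with the KO library left of the control library in each pair; each point is 1 cell and the black bars are medians. Cajal-Retzius-like cells have medians of 18.2 in the KO library and 25.7 in the control library, fibroblast-like cells 31.7 in the KO library and 26.3 in the control library, and both endothelial-like medians are 0.

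Leptomeningeal fibroblast-like cells carried Cxcl12 in every cell, 16 of 16 in the KO library and 33 of 33 in the control library. Their log2 ratio was 0.11 (ratio 0.943 to 1.23), and it was 0.12 in Xist-positive, Y-negative cells. The median cell had 31.7 Cxcl12 UMIs per 10000 UMIs in the KO library (9.76 to 77.3) and 26.3 in the control library (6.30 to 48.3). The libraries thus overlapped, with the highest 2 cells in the KO library. Of the 9 fibroblast markers, 8 were detected in at least 10% of the cells of each library.

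In endothelial-like cells, the lining of the vessels, Cxcl12 had 485 UMIs in the KO library and 578 UMIs in the control library, a log2 ratio of -0.08 (ratio 0.836 to 1.07). In Xist-positive, Y-negative cells it had 128 CPM in the KO library (117 to 140) and 147 CPM in the control library (131 to 165). Y-positive, Xist-negative control cells of the group had 107 CPM (91.7 to 125). In this pool, sex could not be told apart from the single animal. Over both sexes, Cxcl12 was detected in 37.8% of KO cells and 41.1% of control cells at medians of 18287 UMIs in the KO library and 22028 UMIs in the control library, and after thinning to 2000 UMIs in 19.4% of KO cells and 18.7% of control cells. The UMIs were not spread evenly over the endothelial-like cells. A sub-cluster led by Syt15, Fbln2, Msx1, Vegfc, Sema3g and Tmem100, of which Vegfc and Sema3g are known in arterial endothelium, held 22 KO cells and 23 control cells. These cells had 281 Cxcl12 UMIs in the KO library, 802 CPM (711 to 901), against 292 UMIs in the control library, 773 CPM (686 to 866). They made up 57.9% of the endothelial Cxcl12 UMIs in the KO library and 50.5% in the control library, and 20 of 22 KO cells and 22 of 23 control cells were positive. Its log2 ratio was 0.05 (0.878 to 1.23). The sub-cluster also carried 5 mural markers, more than any other endothelial sub-cluster, beside 11 endothelial markers. Whether its barcodes hold cells of different types was not tested. Dividing endothelial-like cells, led by Plk1, Ube2c and Cep55, had 27.3 CPM in the KO library and 36.8 CPM in the control library. The sub-clusters were drawn from 1000 variable genes of these cells less the members and list genes, so the Cxcl12 difference between them was not used to draw them.

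Another endothelial sub-cluster of 3 KO cells and 4 control cells carried fibroblast genes among its leading genes (Dcn, Col1a1 and Pdgfra) beside 10 of 11 endothelial markers, at medians of 31747 UMIs in the KO library and 47659 UMIs in the control library. It had 28 Cxcl12 UMIs in the KO library and 104 in the control library. Whether these barcodes hold cells of different types was not tested. Without them, an alternative added after seeing the data, endothelial-like cells had 124 CPM of Cxcl12 in the KO library and 116 CPM in the control library, a log2 ratio of 0.10 (0.939 to 1.22), and the sign turned. Both values lie within 1.5-fold of no difference.

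The erythroid-like cells had 104 CPM of Cxcl12 in the KO library (92 UMIs) and 95.1 CPM in the control library (88 UMIs), but all 11 endothelial markers were also detected in at least 10% of them in each library, and they were the deepest group, at medians of 29674 UMIs in the KO library and 28027 UMIs in the control library. Their log2 ratio was 0.13 (0.809 to 1.48), but in Xist-positive, Y-negative cells it was 0.74 (1.09 to 2.67), from 92 UMIs in 30 KO cells and 28 UMIs in 16 control cells. Mural-like cells, the pericytes and smooth muscle cells of vessels, had 5 UMIs in the KO library and 1 UMI in the control library. In the neurons other than Cajal-Retzius-like cells, and in the glia, Cxcl12 was sparse. Pyramidal neuron-like cells had 16 UMIs in the KO library, 1.98 CPM, against 51 UMIs in the control library, 4.97 CPM. Their log2 ratio of -1.30 (0.212 to 0.709) counts as lower, as did that of 7.81% of the genes in this group. In Xist-positive, Y-negative cells it was -1.61 (0.162 to 0.621). A single control cell held 13 of the 51 UMIs, and 37 of the 51 lay in cluster 0, against 3 of the 16 KO UMIs. GABAergic neuron-like cells had 18 UMIs in the KO library, 8.004 CPM, and 19 UMIs in the control library, 11.2 CPM. Ependymal-like cells had 13 UMIs in the KO library and 10 in the control library. The unnamed cluster 1 had 6 UMIs in the KO library and 7 in the control library. Cluster 3, also unnamed, had 8 UMIs in the KO library and 17 in the control library. Its log2 ratio of -0.99 (0.182 to 1.19) counts as lower, as did that of 7.29% of the genes there. The stem cell-like group, named by markers of radial glia and neural stem cells (NSC) and so labelled in the plots, had 5 UMIs in the KO library and 6 in the control library, astrocyte-like cells 0 in the KO library and 3 in the control library, and microglia-like cells 0 in both.

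Cxcr4 (ENSMUSG00000045382; mm10, chromosome 1, 128588199 to 128592293, minus strand), the signalling receptor, was much sparser than its ligand and spread over many neural and vascular groups. Over all cells it had 281 UMIs in the KO library, 11.01 CPM (9.76 to 12.4), against 467 UMIs in the control library, 14.8 CPM (13.5 to 16.3). The log2 ratio was -0.43 (0.637 to 0.862), which is within 1.5-fold, and in Xist-positive, Y-negative cells it was -0.37 (0.642 to 0.939). At the cell make-up of the control library, the KO levels gave a log2 ratio of -0.68. It was -0.65 with stricter barcode filters and -0.70 in cells thinned to 2000 UMIs, so that under these settings the gene counts as lower. No cell held more than 5 Cxcr4 UMIs in either library.

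Ependymal-like cells, the ciliated lining of the ventricle, had the highest Cxcr4 level in the KO library. In the control library they and the Cajal-Retzius-like cells stood highest. Ependymal-like cells had 87 UMIs in the KO library, 41.5 CPM (33.2 to 51.1), against 68 UMIs in the control library, 51.2 CPM (39.7 to 64.9), a log2 ratio of -0.31 (0.583 to 1.13). Cajal-Retzius-like cells had 11 UMIs in the KO library, 31.2 CPM (15.6 to 55.8), against 60 UMIs in the control library, 51.5 CPM (39.3 to 66.3). Their log2 ratio of -0.67 (0.287 to 1.16) counts as lower, as did that of 10.2% of the genes in this group, and among Xist-positive, Y-negative cells it was -0.12. Thinning left 2 KO UMIs and 14 control UMIs there, at -0.42. In the control library, intermediate progenitor-like cells followed at 40.9 CPM, neuroblast-like cells at 31.3 CPM and the stem cell-like group at 30.6 CPM. In the KO library the groups after the ependymal-like cells were cluster 17 at 33.7 CPM, Cajal-Retzius-like cells at 31.2 CPM and GABAergic neuron-like cells at 20.01 CPM. No pair of neighbours in either order differed beyond counting error. Astrocyte-like and oligodendrocyte lineage-like cells lay low, with 1 UMI each in the KO library and 7 and 2 UMIs in the control library, and microglia-like cells had none in either.

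**Figure D4:**
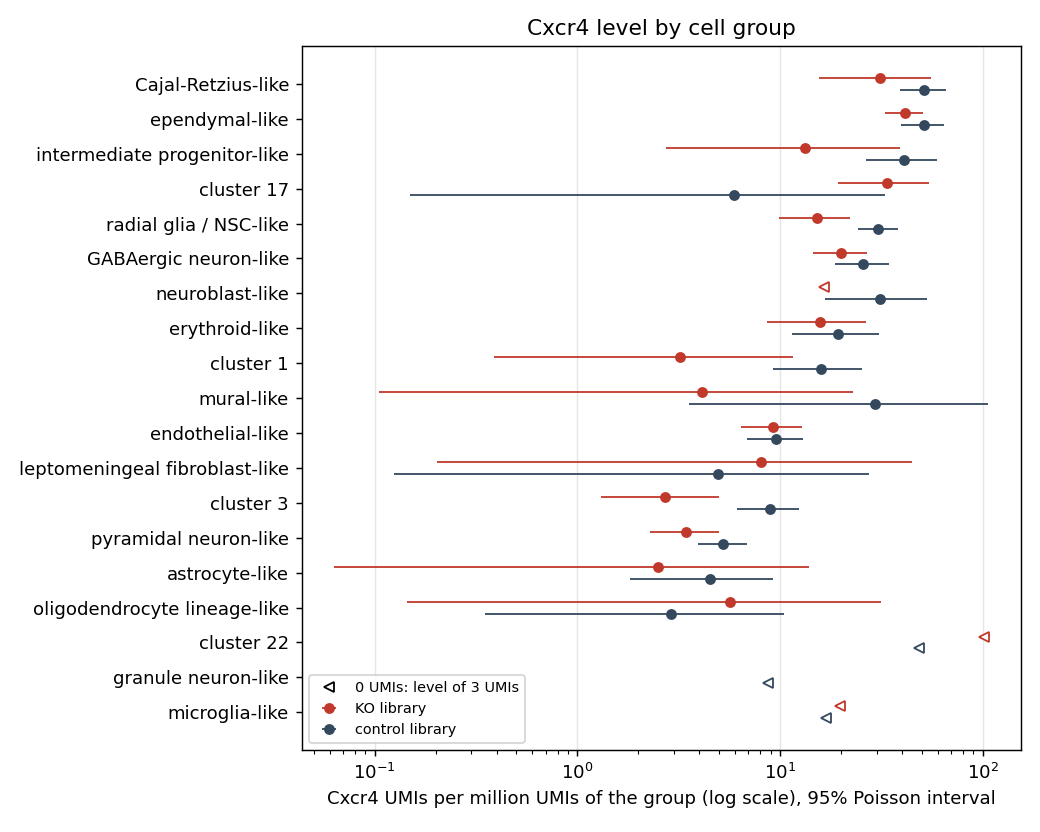
Cxcr4 level in CPM (log axis) by cell group, drawn in the same way as the plot of Cxcl12 levels, with the KO library (red) above the control library (dark blue). Ependymal-like cells lie at 41.5 CPM in the KO library and 51.2 CPM in the control library, and the progenitor groups lie lower in the KO library with wide intervals.

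Cxcr4 was lower by the 1.5-fold rule in the stem cell-like and intermediate progenitor-like groups of the KO library. The stem cell-like group had 26 UMIs in 236 KO cells, 15.2 CPM (9.93 to 22.3), against 79 UMIs in 403 control cells, 30.6 CPM (24.2 to 38.1). The log2 ratio was -0.99 (0.306 to 0.783), which counts as lower, as did that of 10.0% of the 10685 genes in this group. After thinning to 2000 UMIs, 0.905% of 221 KO cells and 5.19% of 385 control cells had a Cxcr4 UMI, whereas at their own depth 8.90% of KO cells and 15.4% of control cells did, with medians of 6686 UMIs in the KO library and 5445 UMIs in the control library. In oligodendrocyte lineage-like cells the unthinned shares were 3.13% of KO cells and 1.48% of control cells. The largest of the 3 clusters of the class differed between the libraries. Cluster 11, led by Pter, Entpd2 and Hgf, held 117 of the KO cells and 66 of the control cells, and the dividing cluster 7 held 70 of the KO cells and 198 of the control cells. Within cluster 7 Cxcr4 had 20.4 CPM in the KO library and 32.7 CPM in the control library, a log2 ratio of -0.65 (0.327 to 1.11), in a cluster where 10.8% of the genes were lower. Within cluster 9, led by Pdlim3, Thrsp and Gas1, it was 21.7 CPM in the KO library (6 UMIs) and 31.4 CPM in the control library (19 UMIs). Within cluster 11 it was 7.16 CPM in the KO library (5 UMIs) and 14.9 CPM in the control library (4 UMIs), too few for the 1.5-fold rule. All 3 clusters were lower in the KO library, and all 3 intervals of the ratio held 1. The border between stem cell-like and intermediate progenitor-like cells moved with the filters and clustering. Under 5 settings (stricter barcode filters, no filter, Leiden resolution 0.5 or 2, and members and list genes among the variable genes), the stem cell-like group kept 7 to 10 KO UMIs and 12 to 20 control UMIs, with log2 ratios from -1.23 to -0.59. The intermediate progenitor-like group then held 18 to 22 KO UMIs and 87 to 106 control UMIs, with log2 ratios from -1.02 to -0.76. The call in the stem cell-like group was lost at resolution 0.5, where fewer than 20 UMIs were left, and with each cell assigned on its own by markers (-0.52, from 18 KO UMIs and 24 control UMIs).

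Within the control library, Cxcr4 in the stem cell-like group also differed between Xist-positive and Y-positive cells. Among Xist-positive, Y-negative cells of the stem cell-like group, the KO cells had 26 UMIs, 15.4 CPM (10.1 to 22.6), and the control cells had 28 UMIs, 21.1 CPM (14.0 to 30.5). Their log2 ratio of -0.45 (0.412 to 1.29) lay within 1.5-fold. Y-positive, Xist-negative control cells of the group stood at 39.8 CPM (27.7 to 55.4). The log2 ratio of the Xist-positive to the Y-positive control cells was -0.91 (0.311 to 0.897), beside -0.99 between the libraries. With 2 animals in the control pool, sex could not be told apart from the single animal.

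The intermediate progenitor-like and neuroblast-like values rest on few counts. Intermediate progenitor-like cells, led by Tac2, Mfap4 and Eomes, had 3 Cxcr4 UMIs in 45 KO cells, 13.4 CPM (2.75 to 39.0), against 26 UMIs in 140 control cells, 40.9 CPM (26.7 to 60.0). The log2 ratio was -1.42 (0.0632 to 1.06), which counts as lower in a group where 16.9% of the genes were. Neuroblast-like cells, led by Igfbpl1, Sema3a, Sema3c and Calb2 with no Prox1 among their 10 leading genes, had 0 UMIs in 40 KO cells, where 3 UMIs would be 16.4 CPM, against 13 UMIs in 115 control cells, 31.3 CPM (16.7 to 53.5), too few for the 1.5-fold rule. Cluster 1, led by Prox1, Syt2 and Gal and left without a name because its neuroblast and granule neuron markers tied, had 2 UMIs in 123 KO cells and 17 UMIs in 283 control cells, a ratio interval of 0.0226 to 0.850. Granule neuron-like cells had 0 Cxcr4 UMIs in 2 KO cells and in 39 control cells. In Xist-positive, Y-negative cells alone, the intermediate progenitor-like group had 3 KO UMIs and 13 control UMIs, the neuroblast-like group had 0 KO UMIs and 9 control UMIs, and cluster 1 had 2 KO UMIs and 7 control UMIs.

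Among the other neurons, cluster 3 and the pyramidal neuron-like cells had lower Cxcr4 levels in the KO library. Cluster 3, unnamed neurons led by Chodl, Nefm and Hhip, had 10 UMIs in the KO library, 2.72 CPM (1.30 to 5.01), against 34 UMIs in the control library, 8.92 CPM (6.17 to 12.5). The log2 ratio was -1.66 (0.135 to 0.632), in a group where 7.29% of the genes were lower, and in Xist-positive, Y-negative cells it was -2.06 (0.0931 to 0.586). Pyramidal neuron-like cells had 28 UMIs in the KO library, 3.46 CPM, against 54 UMIs in the control library, 5.26 CPM, a log2 ratio of -0.59 (0.401 to 1.06). This value lies at the 1.5-fold limit, and the call was lost in Xist-positive, Y-negative cells (-0.33), as a mean over cells (-0.05), with edgeR or DESeq2 scaling (-0.56 with each), without mitochondrial, ribosomal protein and haemoglobin UMIs (-0.57) and with 1 UMI added to each sum (-0.58). It was -1.76 with each cell assigned on its own by markers and -1.93 in thinned cells, from 1 KO UMI and 7 control UMIs. Here too the clusters differed in size between the libraries. Cluster 0, led by St18 and Slc17a7, held 104 KO cells and 337 control cells, and cluster 4, led by Emilin2, Chodl and Grp, held 206 KO cells and 146 control cells. The name of cluster 4 is weak. It rests on Grp among the leading genes, with 3 pyramidal neuron markers detected against 7 neuroblast markers, and Chodl also led cluster 3. This cluster held 26 of the 28 KO UMIs and 30 of the 54 control UMIs of the pyramidal neuron-like group. Cluster 4 had 8.22 CPM in the KO library and 18.3 CPM in the control library, a log2 ratio of -1.15 (0.255 to 0.785) where 7.33% of the genes were lower. Cluster 0 had 1 UMI in the KO library and 22 UMIs in the control library, a log2 ratio of -2.50 (0.00293 to 0.748) where 6.84% of the genes were lower.

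GABAergic neuron-like cells, the interneurons that migrate into the hippocampus from the ventral forebrain, had 45 Cxcr4 UMIs in the KO library, 20.01 CPM (14.6 to 26.8), against 44 UMIs in the control library, 25.9 CPM (18.8 to 34.7), a log2 ratio of -0.37 (0.499 to 1.20). Their cluster 12, led by Sst, Cort and Lhx6, had 22.3 CPM in the KO library and 30.9 CPM in the control library. Their cluster 16, led by Adarb2, Htr3a and Vip, had 15.7 CPM in the KO library and 19.7 CPM in the control library. In Xist-positive, Y-negative cells the sign of the class turned, at a log2 ratio of 0.23 (0.626 to 2.52). Endothelial-like cells had 35 UMIs in the KO library, 9.22 CPM, and 41 UMIs in the control library, 9.58 CPM, a log2 ratio of -0.05 (0.595 to 1.55). Their Vegfc and Sema3g sub-cluster stood at 28.5 CPM in the KO library and 34.4 CPM in the control library. Cluster 17, led by Wnt8b, Lmx1a and Rspo3, had the opposite order, with 16 UMIs in 72 KO cells and 1 UMI in 26 control cells, a log2 ratio of 1.97 (0.882 to 238) from 17 UMIs in all.

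**Figure D5:**
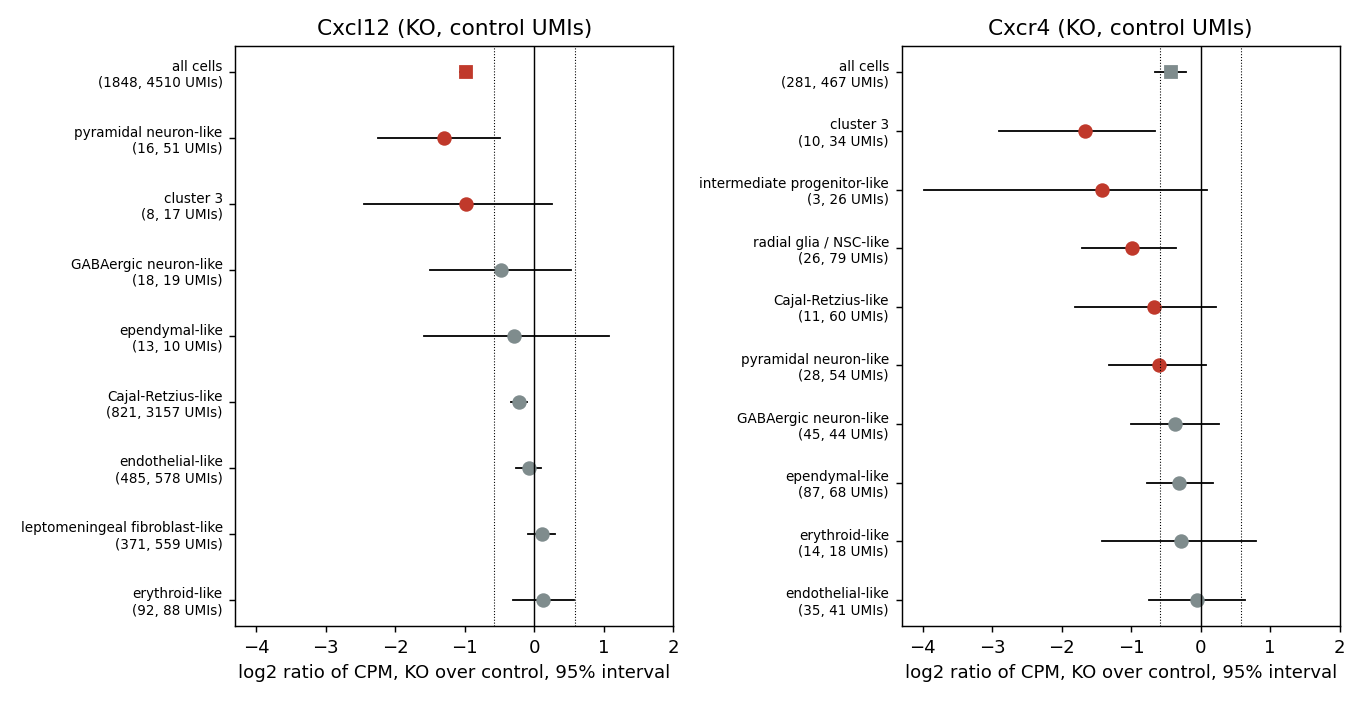
Log2 ratio of CPM, KO over control, of Cxcl12 (left panel) and Cxcr4 (right panel) over all cells (squares) and in each group with at least 20 UMIs of the gene over both libraries (circles); lines are exact 95% intervals, dotted lines mark 1.5-fold, red marks a value lower by at least 1.5-fold, and the UMIs of the KO library come before those of the control library. Cxcl12 lies at -0.99 over all cells and between -0.22 and 0.11 in its 3 main sources, and Cxcr4 lies below 0 in all 9 groups shown.

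Counted over groups, Cxcr4 had at least 20 UMIs in 9 of 19 groups and was below 0 in 9 of 9 and lower by at least 1.5-fold in 5. Beside the shares given above, 6.45% of the genes in the endothelial-like group, 6.91% in the ependymal-like, 6.79% in the GABAergic neuron-like and 7.32% in the erythroid-like group were lower by as much. The interval of the ratio lay wholly below 1 in 2 of them, the stem cell-like group and cluster 3. Of the 4738 genes with at least 20 UMIs in each of these 9 groups, 2.47% were lower in all 9 and 2.72% were higher in all 9. In Xist-positive, Y-negative cells, 8 groups had at least 20 UMIs, of which 6 were below 0 and 1, cluster 3, was lower by at least 1.5-fold. Cxcl12 had at least 20 UMIs in 8 groups and was below 0 in 6 of them, with 2 lower by at least 1.5-fold, the pyramidal neuron-like cells and cluster 3. In Xist-positive, Y-negative cells, 6 groups had at least 20 UMIs of Cxcl12, of which 4 were below 0, 2 were lower by at least 1.5-fold, the pyramidal and GABAergic neuron-like cells, and 1 was higher, the erythroid-like cells. There the GABAergic neuron-like cells had 7.29 CPM in the KO library (16 UMIs) and 12.2 CPM in the control library (9 UMIs). Cluster 3 had only 8 KO UMIs, 2.18 CPM, and 2 control UMIs, 1.77 CPM, so its call was lost and the order of its levels turned. The share of all genes called in Xist-positive, Y-negative cells was not computed. Nor was the share of genes below 0 in as many groups as Cxcl12. These counts thus stand without a background and are not read as results about the 2 genes. In the fibroblast-like group, where Cxcl12 lay within 1.5-fold, 12.6% of the genes were lower.

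Ackr3 (ENSMUSG00000044337; mm10, chromosome 1, 90203980 to 90216751, plus strand), the atypical receptor, was close to the limit of detection. It had 7 UMIs over all KO cells, 0.274 CPM, against 15 UMIs over all control cells, 0.477 CPM, a log2 ratio of -0.75, lower by the 1.5-fold rule on 22 UMIs, whose interval of 0.198 to 1.499 held 1. Endothelial-like cells held 4 of the 7 UMIs in the KO library and 8 of the 15 in the control library, and the erythroid-like cells, which also carried endothelial markers, held 1 in the KO library and 3 in the control library. The other UMIs were single ones. GABAergic neuron-like and Cajal-Retzius-like cells had none in either library. Pyramidal neuron-like and astrocyte-like cells, the stem cell-like group and cluster 1 also had none in either library. In the GABAergic neuron-like cells, 3 UMIs would be 1.33 CPM in the KO library and 1.76 CPM in the control library, so lower levels were not detectable at this depth. In the Cajal-Retzius-like cells, 3 UMIs would be 8.50 CPM in the KO library and 2.58 CPM in the control library. Both lie above the endothelial-like levels of 1.05 CPM in the KO library and 1.87 CPM in the control library. In the pyramidal neuron-like cells, 3 UMIs would be 0.370 CPM in the KO library and 0.292 CPM in the control library. Those 2 values lie below the endothelial-like levels.

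Ligand and signalling receptor were seen together in few cells, which in the control library were mainly Cajal-Retzius-like. In cells thinned to 2000 UMIs, 5 of 1779 KO cells and 17 of 2752 control cells had UMIs of both Cxcl12 and Cxcr4. The product of the shares of each gene would give 2.29 KO cells and 8.47 control cells. Of the cells with both, 2 of 5 in the KO library and 14 of 17 in the control library were Cajal-Retzius-like. Within that group, 2 of 30 KO cells had both, where the product of the shares gives 1.93, and 14 of 130 control cells, where it gives 13.5. Every Cxcr4-positive thinned Cajal-Retzius-like cell was thus also Cxcl12-positive, in a group where nearly every cell carried the ligand. After thinning, Ackr3 was left in 0 KO cells and 1 control cell, so that its overlap with the other genes could be read only at the cells' own depth. There, 3 of 6 Ackr3-positive KO cells and 6 of 15 Ackr3-positive control cells also had Cxcl12, and 2 of 6 KO cells and 7 of 15 control cells also had Cxcr4.

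The genes most like Cxcl12 over the 8 groups with at least 50 cells in each library, by Pearson's r of log2(CPM + 10), were Arhgap28, Dysf, Fgd5, Glra1 and Bcam, with r between 0.981 and 0.993 in the KO library and between 0.980 and 0.994 in the control library. These groups leave out the Cajal-Retzius-like and fibroblast-like cells, so the likeness rests on the endothelial-like cells. Over the 23 clusters with at least 10 cells in each library, a set added after seeing the data, the first genes were Col1a1, which encodes a chain of type I collagen (r 0.88 in the KO library and 0.82 in the control library), and Mmp2, which encodes a matrix protease known to cleave CXCL12 (0.83 in the KO library and 0.82 in the control library). Over the same clusters, r between Cxcl12 and Cxcr4 was 0.31 in the KO library and 0.08 in the control library. Cxcr4 was most like Anapc11, Thap1, Mcat, Bag2 and Cmss1 over the 8 groups, with r between 0.884 and 0.906 in the KO library and between 0.870 and 0.916 in the control library. The points share their library and depth, and these values describe the libraries only. For Ackr3, with 12 UMIs in its highest group, no such list is given.

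Of 43 genes of CXCL12 signalling and trafficking, 42 were listed in the tables and all 42 had enough UMIs over all cells. There, 2 were higher in the KO library, 1 was lower and 39 lay within 1.5-fold, with a median log2 ratio of 0.04 beside 0.00 over all genes. Of all genes over all cells, 8.25% were higher and 5.34% were lower. Higher were Sdc4, which encodes a heparan sulphate proteoglycan, at 17.8 CPM in the KO library and 10.6 CPM in the control library, and Cd74, which encodes the invariant chain of MHC class II, at 4.58 CPM in the KO library and 1.46 CPM in the control library. Lower was Ptk2b, which encodes a focal adhesion-related kinase, at 20.8 CPM in the KO library and 34.8 CPM in the control library.

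In endothelial-like cells, 3 of 37 of these genes were higher and 1 was lower, with a median log2 ratio of 0.12 beside -0.02 over all genes there, where 4.52% of the genes were higher and 6.45% were lower. Cd74 had 56 UMIs in the KO library and 7 UMIs in the control library, a log2 ratio of 3.09 (4.10 to 23.5). Dpp4, which encodes a peptidase that inactivates CXCL12 by trimming its N terminus, had 51 UMIs in the KO library and 89 in the control library, a log2 ratio of -0.62 (0.449 to 0.921). The most abundant gene of the list was Gnai2, an inhibitory G protein alpha subunit, at 2089 CPM in the KO library and 1713 CPM in the control library. In ependymal-like cells 7 of 31 were higher and 0 were lower, beside 9.40% and 6.91% of all genes there. Among them, Arrb1, which encodes a beta-arrestin, had 31.5 CPM in the KO library and 15.8 CPM in the control library, and Ndst1, an enzyme of heparan sulphate sulphation, 56.2 CPM in the KO library and 36.1 CPM in the control library.

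Of 39 other chemokine and chemokine receptor symbols, 23 gene entries had enough UMIs over all cells, of which 0 were higher and 2 were lower, Ccl12 and Ccl5, both ligands of CC chemokine receptors. Of all genes, 8.25% were higher over all cells and 5.34% were lower. Ccl12 had 66 UMIs in the KO library and 160 UMIs in the control library, and Ccl5 had 2 UMIs in the KO library and 20 UMIs in the control library. In endothelial-like cells, where 4.52% of all genes were higher and 6.45% were lower, 0 of 12 were higher and 3 were lower. These were Ackr1, an atypical chemokine receptor of venules, with 15 UMIs in the KO library and 44 in the control library, Ccl2, with 7 in the KO library and 32 in the control library, and Cx3cl1, with 19 in the KO library and 35 in the control library. The list does not cover every chemokine gene. Ccl21a, the first leading gene of the endothelial-like cluster, is not on it.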

How the data were processed

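One KO library and 1 control library were analysed, each of pooled cells of 2 animals. The deposited tables hold raw UMI counts, 1 whole number for each gene in each barcode. Per the labels' protocols, 3′ droplet libraries (10x Genomics) were made with a target of 2500 cells a condition. The submitters' processing notes list Cell Ranger 3.0.2, Seurat 3 and the build mm10 without saying what each was used for. Gene coordinates are those of GENCODE vM21 on the same build. Protein sequences were not used here, and no sequence is printed because 3′ counts bear on none.

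Barcodes were kept with at least 500 genes, 1000 UMIs and at most 10% mitochondrial UMIs (1936 of 2292 in the KO library and 2956 of 3555 in the control library, after doublet removal). The deposited tables held 26819750 UMIs in the KO library and 33517318 UMIs in the control library. Scrublet called 7 doublets in the KO library and 4 in the control library, too few for a working caller, and in its place the barcodes with the highest doublet scores went out at a rate of 0.8% per 1000 barcodes (31 in the KO library and 73 in the control library). Both libraries were clustered together in scanpy 1.11.5 (2000 variable genes less members and list genes, 1968 used, 30 components, 15 neighbours, Leiden resolution 1). Of 24 clusters, 20 were named, each by 3 or more markers found in 10% or more of the cluster's cells and 1.5-fold above other clusters. Clusters 1 and 17 stayed unnamed because another type tied or led among the 10 leading genes, and cluster 22 because it was shallow. Cluster 3 had no marker among its leading genes and tied at 4 neuroblast and 4 pyramidal neuron markers detected. UMIs were summed per library and group. Ratios divide the KO by the control CPM on the log2 scale, after adding 0.5 UMI to either sum, with exact conditional binomial intervals. The step was tested on simulated data. Shares use cells thinned to 2000 UMIs where stated, which left out 157 KO cells and 204 control cells. A limit for 0 counts is set at 3 counts. Scaling factors came from edgeR 4.0.16 and DESeq2 1.42.0 in R 4.3.3. Named were the 3 members in each group of at least 50 cells per library or holding at least 5% of a member's UMIs, list genes by abundance, and other groups, clusters and list genes chosen after their values were seen. The members, lists and markers were chosen with earlier results of these data known.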

Additional observations from a re-analysis of the deposited data

How the results depend on the processing

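The ratios over all cells and in the highest of the 8 groups with at least 50 cells in each library, those groups' levels and the shares of cells with both genes were recomputed under other filters, clusterings, scalings and depths, 4 of these settings added after seeing the data, and no ratio of at least 1.5-fold changed sign. Of the 123 values, 111 stayed within the counting interval of the reported value and 12 moved beyond it; the cause was not tested. For Cxcl12 over all cells, the log2 ratio was -0.16 at the control library's make-up and -0.13 without Cajal-Retzius-like cells, both by construction from fewer or reweighted cells. For Cxcr4 over all cells it was -0.65 with stricter barcode filters, -0.70 in thinned cells and -0.68 at the control make-up, beyond 1.5-fold in each. For Cxcl12 in endothelial-like cells it was 0.21 with each cell assigned on its own by markers, 0.17 as a mean over cells and 0.10 without the cells with fibroblast genes. The endothelial level over both libraries, 132 CPM, became 116 CPM with each cell assigned on its own and 166 CPM with mitochondrial, ribosomal protein and haemoglobin UMIs left out, with the same groups leading for all 3 genes. Cells with both Cxcl12 and Cxcr4 made up 0.281% of KO cells and 0.618% of control cells after thinning, against 1.96% and 3.18% at their own depth. In the stem cell-like group the Cxcr4 log2 ratio ranged from -2.30 (thinned, 2 KO and 21 control UMIs) to -0.45, and in pyramidal neuron-like cells it ranged from -1.93 to -0.05. No paired analysis was possible because each genotype has 1 library, and leaving out a replicate was not possible for the same reason. Depth limits Ackr3 in most groups and Cxcr4 in the small groups.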
